A study of Mus musculus with 6 samples.

Results

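The Kruppel-like factors (KLFs) are a family of transcription factors that bind GC-rich and CACCC sequences through zinc fingers at their carboxyl end. Of the 27502 genes in the deposited tables, 10 were taken as members by their gene symbol alone: Klf2, Klf3, Klf4, Klf5, Klf6, Klf7, Klf9, Klf10, Klf13 and Klf15. Their RNA levels were compared between mouse aortic vascular smooth muscle cells labelled siEzh2 (short interfering RNA against Ezh2, 3 samples) and cells labelled control (3 samples), all collected at 48 hours. Ezh2 encodes the catalytic subunit of Polycomb repressive complex 2 (PRC2), the enzyme complex behind the repressive histone mark H3K27me3. The sources used here give neither the mouse strain, age or sex, nor the siRNA sequences, nor the treatment of the control cells. They do not say that the samples of 1 group are independent cultures or animals either, so p-values reflect sample-to-sample spread that may be technical.

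Within the family, Klf2, Klf4, Klf5, Klf6 and Klf7 are grouped as transcriptional activators, although Klf4 also represses. Klf3 is a repressor that recruits the CtBP corepressors, and Klf9, Klf10 and Klf13 are repressors that recruit Sin3a. In vascular smooth muscle the family is known above all for Klf4 and Klf5, which take part in the switch from contractile cells to proliferating, matrix-producing cells, and for Klf15, which restrains smooth muscle growth in mice. PRC2 is found mainly at CpG-rich promoters, a class to which many developmental transcription factor genes belong.

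All values are FPKM, read fragments scaled by exon length and library size. Reads recovered from the steps in the deposited FPKM summed to between 16080005 and 17553743 per siEzh2 sample and between 18248440 and 18753124 per control sample. Ezh2 itself stood at 1.20, 1.09 and 1.05 FPKM in siEzh2 samples, against 3.41, 3.59 and 3.88 FPKM in control samples, so the labels matched the level of the targeted gene. The labelled cell type was only partly borne out by its markers. Of 12 smooth muscle markers, Acta2 and Myl9 were high, whereas Tagln was at 0.228 ± 0.0744 FPKM in siEzh2 cells and 0.253 ± 0.0865 FPKM in control cells (SD, n = 3 each), and Cnn1 and Myh11 reached at most 1.38 and 1.996 FPKM in any sample. Of the 9 that were tested, 1 was higher, 6 were lower and 2 did not pass, where 24.1% of all tested genes were called higher and 22.7% lower. The summed level of the list was 836 to 869 FPKM in siEzh2 samples, against 1100 to 1128 FPKM in control samples. The data are bulk RNA, in which fewer cells of a type and less RNA per cell cannot be told apart.

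Promoter sequence is shown first for 3 members. Klf15 and Klf2 were lower in siEzh2 cells under every setting tried, and Klf4 is the member best known in smooth muscle. Each run is the RefSeq sequence (GRCm38.p6) of up to 250 bases ahead of the annotated start, read 5′ to 3′ along the gene's strand. Capitals mark matches on either strand to 5 motifs: the GC box GGGCGG and the CACCC box, which Sp and KLF proteins bind, the CCAAT box, the E-box CACGTG, and TAAATTTA, the centre of a site type bound by MEF2 factors. The motifs were chosen after the sequences had been seen. The Klf15 window is chr6:90462326-90462575 on the plus strand, the Klf2 window chr8:72318812-72319032 on the plus strand and the Klf4 window chr4:55532476-55532725 on the minus strand. Klf2 is shown only as far as the more upstream start in GENCODE.
Klf15: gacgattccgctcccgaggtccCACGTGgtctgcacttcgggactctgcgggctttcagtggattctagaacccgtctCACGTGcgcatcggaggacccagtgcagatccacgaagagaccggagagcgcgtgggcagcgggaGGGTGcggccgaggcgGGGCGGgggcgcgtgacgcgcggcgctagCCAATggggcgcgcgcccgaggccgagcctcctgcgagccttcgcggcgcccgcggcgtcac
Klf2: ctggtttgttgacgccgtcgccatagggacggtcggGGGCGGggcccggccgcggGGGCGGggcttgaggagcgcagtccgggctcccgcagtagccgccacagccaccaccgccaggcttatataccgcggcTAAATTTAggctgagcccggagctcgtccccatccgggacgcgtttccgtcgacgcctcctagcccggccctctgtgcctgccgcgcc
Klf4: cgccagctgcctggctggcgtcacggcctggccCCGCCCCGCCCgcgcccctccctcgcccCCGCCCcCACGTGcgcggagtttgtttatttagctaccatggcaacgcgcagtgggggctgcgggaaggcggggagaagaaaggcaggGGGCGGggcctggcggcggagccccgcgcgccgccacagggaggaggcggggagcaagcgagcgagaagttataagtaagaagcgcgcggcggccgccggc

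In these windows, counted over the full 250 bases, Klf15 held 37 CpG dinucleotides, Klf4 held 32 and Klf2 held 29, against a median of 6 over the 32851 promoters of the table. All 3 were therefore CpG-rich, and 97.8% of promoters had fewer CpGs than Klf15. The Klf15 window held 2 E-boxes, at 228 to 223 and at 172 to 167 bases before the start, a motif found in 6.02% of all windows. The Klf2 window held the MEF2-type centre at 117 to 110 bases before the start, a motif found in 0.502% of all windows, and 2 GC boxes. The Klf4 window held 4 GC boxes, of which a pair overlap by 1 base, and 1 E-box. GC boxes were found in 32.7%, CACCC boxes in 52.0% and CCAAT boxes in 33.8% of windows, so these matches are common. All of these shares are over windows of any CpG content. Since the motifs were chosen after the sequences had been seen, a low share gives a motif no weight. Of the other members with an entry, Klf13 had 24 CpGs, Klf3 23, Klf6 21, Klf9 18 and Klf7 13, all above the median promoter. The whole Klf7 window and 133 bases of the Klf3 window lie inside the gene as GENCODE annotates it, so they are not all sequence ahead of the start. Klf5 and Klf10, both called higher, had no entry, so whether CpG content goes with direction cannot be read for the whole family. Among the members with an entry, the windows of Klf15 and Klf4, which moved oppositely, were the richest. Klf7 was the only other member called higher that had an entry. A motif match is a description of the letters and says nothing of whether a factor was bound.

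In siEzh2 cells the KLFs changed in both directions while their summed level differed by less than the spread between samples. The test called 4 members higher (Klf10, Klf5, Klf7 and Klf4) and 3 lower (Klf15, Klf2 and Klf13). Klf10 was 2.02 times its control level, and Klf15 was 49.6% below its own. All 10 passed the filter (a mean of at least 1 FPKM in a group) and were tested with limma on log2(FPKM + 1), with Benjamini-Hochberg adjustment over 11869 genes and a call at an adjusted p under 0.05. Over all tested genes 24.1% were called higher and 22.7% lower, 46.9% in all, against 4, 3 and 7 of the 10 members. So few members give no basis for reading a difference from this background. Values of the groups did not overlap for 9 members, against 58.1% of all tested genes. The median log2 fold change (siEzh2 minus control) of the members was −0.01, and their median size of change was 0.18, against 0.01 and 0.16 over all tested genes. The 10 members summed to 268, 264 and 259 FPKM in siEzh2 samples, against 267, 260 and 262 FPKM in control samples, a ratio of 1.003.

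**Figure D1:**
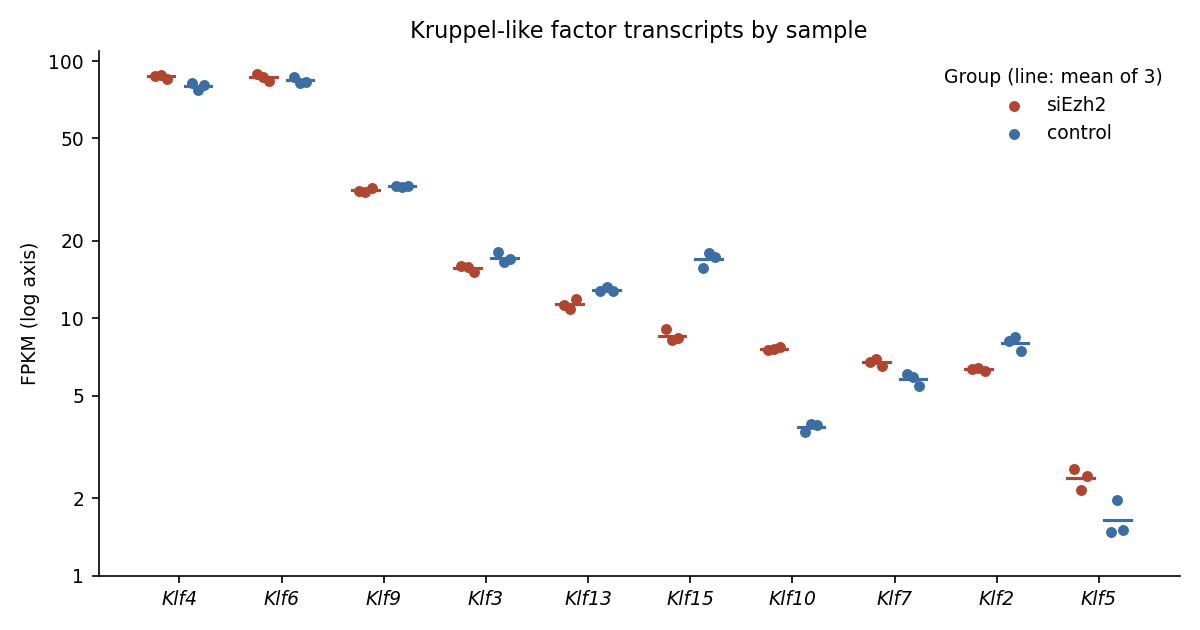
FPKM (log axis) of each member in each sample, siEzh2 points left of control points, with a line at the mean of 3 samples; members run from the highest to the lowest siEzh2 mean. Klf10 and Klf15 show the widest separation of the groups, and the groups overlap for Klf6 alone.

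The family was dominated by a pair of genes. Klf4 and Klf6 made up 65.8% ± 0.633 of the summed FPKM in siEzh2 cells and 62.4% ± 0.828 in control cells (SD, n = 3 each). In siEzh2 cells the order of the means was Klf4, Klf6, Klf9, Klf3, Klf13, Klf15, Klf10, Klf7, Klf2 and Klf5, in which Klf4 and Klf6 had overlapping ranges and every other pair of neighbours was separate. In control cells it was Klf6, Klf4, Klf9, Klf3, Klf15, Klf13, Klf2, Klf7, Klf10 and Klf5, in which Klf3 and Klf15 overlapped and the others were separate. Klf15 thus stood beside Klf3 in control cells and just above Klf10 in siEzh2 cells, and Klf10 passed both Klf7 and Klf2.

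Among the activators, Klf4 and Klf5 are the members tied to smooth muscle phenotype switching. Klf4, which represses contractile genes in that setting, was at 87.8, 88.3 and 85.4 FPKM in siEzh2 samples, against 81.9, 77.4 and 80.8 FPKM in control samples. All siEzh2 samples were above all control samples, by a small margin. The means were 87.2 ± 1.56 FPKM in siEzh2 cells and 80.1 ± 2.38 FPKM in control cells (SD, n = 3 each), 1.09 times higher, with a log2 fold change of 0.12 (SE 0.0377, adjusted p = 0.0387). This call was lost in 8 of 12 alternative settings, including each of the 6 in which 1 sample was left out (adjusted p 0.0536 to 0.115). Klf4 reads summed to 13570 in siEzh2 samples and 13568 in control samples, while the libraries were smaller in siEzh2 samples, so the difference is one of reads per library and not of reads.

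Klf5, which promotes smooth muscle proliferation in mice, was the lowest member, with 2.61, 2.14 and 2.43 FPKM in siEzh2 samples and 1.48, 1.97 and 1.502 FPKM in control samples. The lowest siEzh2 sample was 0.178 FPKM above the highest control sample. Klf5 averaged 2.39 ± 0.233 FPKM in siEzh2 cells and 1.65 ± 0.274 FPKM in control cells (SD, n = 3 each), 1.45 times higher, with a log2 fold change of 0.36 (SE 0.0865, adjusted p = 0.0164). It rested on 634 reads in siEzh2 samples and 478 in control samples, the fewest of any member in the control group, and leaving out siEzh2 replicate 1, control replicate 1 or control replicate 3 raised the adjusted p to 0.0507, 0.0524 and 0.0537. The ratio of Klf4 to Klf5 was 36.7 ± 3.97 in siEzh2 cells and 49.5 ± 8.79 in control cells, and the ranges of the groups overlapped.

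Klf2, best known in endothelium as a gene induced by blood flow, ran the other way. It stood at 6.36, 6.44 and 6.22 FPKM in siEzh2 samples, against 8.18, 8.45 and 7.44 FPKM in control samples. The siEzh2 samples lay close together and all below the controls. Klf2 averaged 6.34 ± 0.111 FPKM in siEzh2 cells and 8.02 ± 0.526 FPKM in control cells, 21.0% lower, with a log2 fold change of −0.30 (SE 0.0504, adjusted p = 0.00442), and the call held in all 12 alternatives. Markers of the vessel lining were low in these cultures. Of 10 endothelial markers 7 were below 1 FPKM in every sample, and 1 of the 2 tested (Kdr) was higher and 1 (Emcn) lower. Among those not tested, Tek averaged 0.857 FPKM in siEzh2 cells and 0.332 FPKM in control cells. Vwf averaged 0.932 FPKM in siEzh2 cells and 0.417 FPKM in control cells. Both were above their controls without overlap. Pecam1 and Cldn5 were below theirs, with Cldn5 at 0 in all siEzh2 samples and at 8 reads over the control samples. Cdh5, Nos3, Erg and Tie1 overlapped. The list summed to 4.90 to 5.52 FPKM in siEzh2 samples and 4.15 to 4.51 FPKM in control samples. The markers did not move together, and their part in the Klf2 level was not tested.

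Klf7, an activator known from neuronal development, was at 6.77, 6.94 and 6.53 FPKM in siEzh2 samples and 6.06, 5.92 and 5.44 FPKM in control samples. It was 1.16 times higher in siEzh2 cells without overlap, with a log2 fold change of 0.19 (SE 0.0471, adjusted p = 0.0193). The call was lost without siEzh2 replicate 1 (adjusted p = 0.0511) or siEzh2 replicate 2 (adjusted p = 0.0620). Antisense genes cover 39.4% of the Klf7 exon bases, and no source used here says whether counting used the strand, so the level is uncertain. One of these antisense genes, Gm13748, had 6 reads over the siEzh2 samples and 0 over the control samples.

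Klf6, an activator induced early after vessel injury, was at 89.3, 87.0 and 83.3 FPKM in siEzh2 samples and 86.6, 82.4 and 83.2 FPKM in control samples. The groups overlapped. The log2 fold change was 0.04, with a 95% interval of −0.06 to 0.14 (adjusted p = 0.453).

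**Figure D2:**
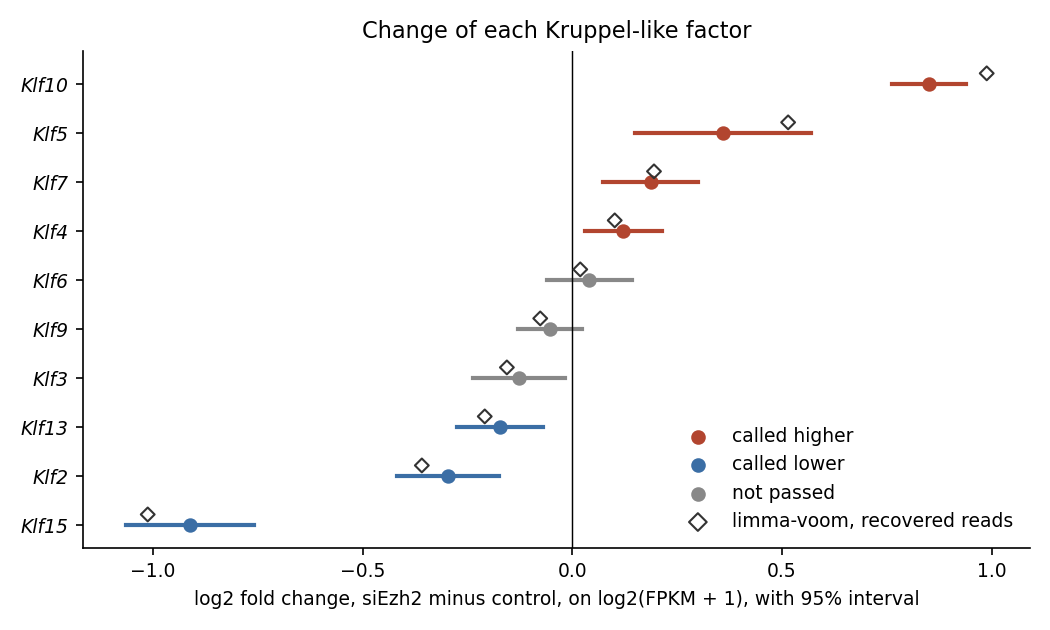
Log2 fold change of each member, siEzh2 minus control, on log2(FPKM + 1), with 95% intervals (filled points and bars), and the limma-voom estimate on recovered reads (open diamonds, which use a different log scale). Klf10 at 0.85 and Klf15 at −0.91 stand far from zero, and the filled points of the other 8 members lie between −0.30 and 0.36.

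The Sin3-binding repressors diverged. Klf10, a gene induced early by TGF-β, had the largest rise of the family. It stood at 7.53, 7.57 and 7.74 FPKM in siEzh2 samples, against 3.62, 3.88 and 3.84 FPKM in control samples. The groups were far apart and each was tight. Klf10 averaged 7.61 ± 0.112 FPKM in siEzh2 cells and 3.78 ± 0.141 FPKM in control cells (SD, n = 3 each), 2.02 times higher, with a log2 fold change of 0.85 (SE 0.0369, adjusted p = 4.55e-05). Only 2.06% of all tested genes had a larger change, and the call held in all 12 alternatives with log2 fold changes of 0.83 to 0.99.

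Klf13, known as a regulator of chemokine expression in T cells, was at 11.3, 10.9 and 11.9 FPKM in siEzh2 samples and 12.8, 13.2 and 12.8 FPKM in control samples. It was 12.1% lower in siEzh2 cells without overlap, with a log2 fold change of −0.17 (SE 0.0423, adjusted p = 0.0175). The call was lost without siEzh2 replicate 2 (adjusted p = 0.0531) or control replicate 2 (adjusted p = 0.0591). Klf9, a gene induced by glucocorticoids and thyroid hormone, stood at 31.2, 31.1 and 32.0 FPKM in siEzh2 samples and 32.8, 32.4 and 32.8 FPKM in control samples. The siEzh2 values were all below the control values, but the difference of −0.05 on the log2 scale (95% interval −0.13 to 0.02) did not pass the test (adjusted p = 0.219). Together Klf9, Klf10 and Klf13 summed to 50.4 ± 1.11 FPKM in siEzh2 cells and 49.4 ± 0.121 FPKM in control cells (SD, n = 3 each). The mean of Klf10 differed by 3.84 FPKM, that of Klf13 by −1.56 FPKM and that of Klf9 by −1.21 FPKM, siEzh2 minus control.

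Klf3, the CtBP-binding repressor, was at 16.0, 15.8 and 15.1 FPKM in siEzh2 samples, against 18.1, 16.5 and 17.0 FPKM in control samples. The groups did not overlap. The log2 fold change of −0.13 (95% interval −0.24 to −0.02) did not pass after adjustment (adjusted p = 0.0620), whereas it did with trend and robust variance (adjusted p = 0.0413) and with limma-voom on recovered reads (adjusted p = 0.000471), over a range of 0.000471 to 0.156 in the 12 alternatives. Klf3 shares 3.59% of its exon bases with the antisense gene Gm20033, which had 8 reads over the siEzh2 samples and 5 over the control samples.

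Klf15, a regulator of amino acid, glucose and lipid use that is induced by glucocorticoids, fell the most. It stood at 9.11, 8.22 and 8.38 FPKM in siEzh2 samples, against 15.7, 18 and 17.3 FPKM in control samples. The highest siEzh2 sample was 6.56 FPKM below the lowest control sample. Klf15 averaged 8.57 ± 0.475 FPKM in siEzh2 cells and 17.0 ± 1.20 FPKM in control cells (SD, n = 3 each), 49.6% lower, with a log2 fold change of −0.91 (SE 0.0631, adjusted p = 0.000171). Only 1.54% of all tested genes had a larger change, and the call held in all 12 alternatives with log2 fold changes of −1.01 to −0.87. The gene lies on the plus strand of chromosome 6 (mm10 chr6:90462576-90475238).

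On the log2 scale Klf10 had the largest rise and Klf15 the largest fall of the family. The change of their ratio follows from these changes. The ratio of Klf10 to Klf15 in FPKM was 0.826, 0.921 and 0.924 in siEzh2 samples, against 0.231, 0.215 and 0.221 in control samples. It was 4.003 times as high in siEzh2 cells, with no overlap. The ratio of Klf9 to Klf15, both glucocorticoid-induced genes, was 3.68 ± 0.217 in siEzh2 cells and 1.93 ± 0.151 in control cells, and that of Klf4 to Klf2 was 13.7 ± 0.0467 in siEzh2 cells and 10.01 ± 0.856 in control cells (SD, n = 3 each). These ratios were formed after the members' values were seen and were not tested.

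**Figure D3:**
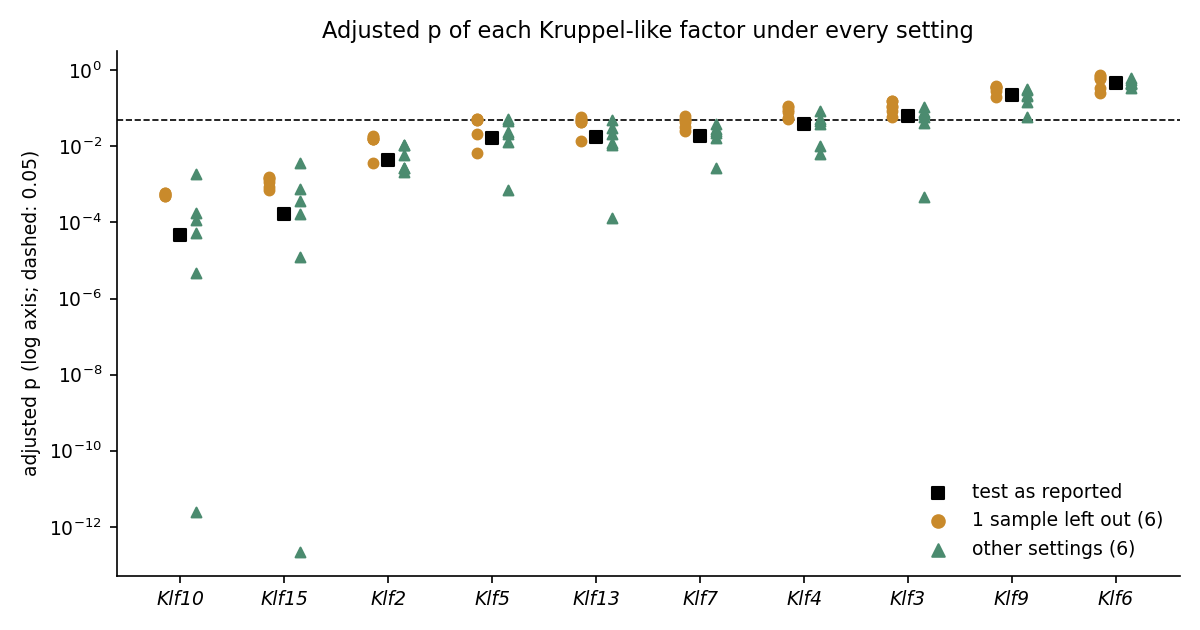
Adjusted p of each member (log axis) in the test as reported (squares), with each of 6 samples left out (circles) and under 6 other settings (triangles); the dashed line marks 0.05. Klf10, Klf15 and Klf2 lie below the line throughout, whereas Klf4, Klf5, Klf7 and Klf13 cross it.

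Of the 7 called members, 3 (Klf2, Klf10 and Klf15) were called under every one of the 12 alternatives and 4 (Klf4, Klf5, Klf7 and Klf13) lost the call in at least 1. The number of members called higher was 1 without siEzh2 replicate 1, and 2 without siEzh2 replicate 2, control replicate 1 or control replicate 3. No member reversed direction in any alternative.

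Genes next to the members on the chromosome were read as a check of whether the changes extended to neighbours. Of the 20 nearest tested genes, 1 on each side of every member, 5 were higher, 2 lower and 13 did not pass. That is 35% called, against 46.9% of all tested genes (24.1% higher and 22.7% lower), so the neighbours were called no more often than the background. Of the 14 neighbours of called members, 4 were called in the member's direction and 1 in the opposite one. Beside Klf15, the same-strand gene Gm44421 lies 3228 bases away and averaged 0.632 FPKM in siEzh2 cells and 1.22 FPKM in control cells, without passing (adjusted p = 0.0905). Gm44421 reached the filter only through its control mean, so it could be tested only because it was high there. The nearest tested gene at higher coordinates than Klf5 is another family member, Klf12, which averaged 1.11 FPKM in siEzh2 cells and 1.03 FPKM in control cells and did not pass (adjusted p = 0.622).

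Other genes of the family and of its known partners were read from lists, whose counts stand against the 24.1% higher and 22.7% lower of all tested genes. Of 16 other KLF and Sp factors, 13 were in the tables and 7 passed the filter, of which 2 were higher, 1 was lower and 4 did not pass. Sp1, a widely expressed activator that binds the same GC boxes, was at 7.95, 7.83 and 7.98 FPKM in siEzh2 samples, against 9.03, 9.22 and 9.43 FPKM in control samples. It fell without overlap (log2 fold change −0.20, adjusted p = 0.00423). Sp4, an Sp factor best known in the brain, averaged 1.001 ± 0.106 FPKM in siEzh2 cells, against 0.552 ± 0.0816 FPKM in control cells (adjusted p = 0.00329), and Sp9, known in forebrain interneurons, averaged 1.01 ± 0.140 FPKM in siEzh2 cells, against 0.652 ± 0.0867 FPKM in control cells (adjusted p = 0.0134). Both passed the filter only through their siEzh2 mean, so they could be tested only because they were high there, and the count of 2 higher is no support for a rise in this list. Klf12, Klf16, Sp2 and Sp3 did not pass, and Klf1, Klf8, Klf11, Klf17, Sp5 and Sp7 were below 1 FPKM in both group means.

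Of 14 KLF corepressors and coactivators all were tested, with 8 higher, 2 lower and 4 not passing, and a median log2 fold change of 0.16. Sap30, a subunit of the Sin3 complex, averaged 7.76 ± 0.887 FPKM in siEzh2 cells and 6.15 ± 0.421 FPKM in control cells (log2 fold change 0.29, adjusted p = 0.0297). Sin3a, Hdac1 and Hdac2, the core of the complex that Klf9, Klf10 and Klf13 recruit, were also called higher; they are named after their values were seen. Sin3a averaged 8.09 ± 0.187 FPKM in siEzh2 cells and 6.59 ± 0.232 FPKM in control cells (adjusted p = 0.00256). Sin3b, the other Sin3 scaffold gene, did not pass (log2 fold change −0.06, adjusted p = 0.253), and neither did Ctbp1 and Ctbp2, the partners of Klf3. The acetyltransferase gene Kat2b had the largest fall of the list, with 7.09 ± 0.508 FPKM in siEzh2 cells and 11.0 ± 1.30 FPKM in control cells (log2 fold change −0.56, adjusted p = 0.00324).

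Several KLF proteins are turned over by ubiquitin ligases, so RNA levels need not follow protein. Of 9 such ligase genes 4 were higher, 2 lower and 3 did not pass. Mdm2, best known as the ligase of p53, was at 76.3, 76.0 and 73.6 FPKM in siEzh2 samples, against 48.8, 45.2 and 48.8 FPKM in control samples (log2 fold change 0.65, adjusted p = 0.000151). Stub1, a chaperone-linked ligase, averaged 23.1 ± 0.594 FPKM in siEzh2 cells and 26.1 ± 0.678 FPKM in control cells (log2 fold change −0.17, adjusted p = 0.0130). Fbxw7, a ligase of Klf5 named after its values were seen, averaged 3.30 ± 0.248 FPKM in siEzh2 cells and 2.31 ± 0.0698 FPKM in control cells (adjusted p = 0.00182). Wwp1, another ligase of Klf5, did not pass (adjusted p = 0.587).

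In endothelium the kinase cascade that ends in Mapk7 (ERK5) acts through MEF2 factors on Klf2 and Klf4. The list read for it also holds the CCM genes, which restrain the cascade in endothelium, and p38 and protein kinase C genes. Of its 14 genes 12 were tested, with 1 higher, 3 lower and 8 not passing. Mef2a, a MEF2 factor, was at 6.24, 6.01 and 6.05 FPKM in siEzh2 samples, against 8.59, 8.88 and 8.61 FPKM in control samples. It was lower without overlap (log2 fold change −0.45, adjusted p = 0.000221). Map2k5, the kinase directly above Mapk7, averaged 5.38 ± 0.310 FPKM in siEzh2 cells and 6.14 ± 0.340 FPKM in control cells (adjusted p = 0.0480), and Pdcd10, a CCM gene, was the other gene called lower. Mapk7 and Mef2d did not pass, and Prkca, a protein kinase C gene, rose to 8.12 ± 0.344 FPKM in siEzh2 cells, against 7.16 ± 0.124 FPKM in control cells (adjusted p = 0.0193). The Klf2 window above carries a MEF2-type centre, a motif chosen after that sequence had been seen. Klf2 and Mef2a were both lower, and Klf4 was not. Whether these are connected was not tested.

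Klf9 and Klf15 are textbook glucocorticoid targets, so the receptor and its other targets were set beside them. Of 11 such genes 3 were higher, 5 lower and 3 did not pass. Nr3c1, the receptor, averaged 12.8 ± 0.569 FPKM in siEzh2 cells and 15.3 ± 0.121 FPKM in control cells (adjusted p = 0.00446). Dusp1, a MAP kinase phosphatase, averaged 67.3 ± 3.93 FPKM in siEzh2 cells and 84.2 ± 4.71 FPKM in control cells (log2 fold change −0.32, adjusted p = 0.00657), and Fkbp5, which encodes a receptor co-chaperone, also fell, to 34.8 ± 0.402 FPKM in siEzh2 cells, against 43.3 ± 1.25 FPKM in control cells (adjusted p = 0.00104). Angptl4, a lipase inhibitor, rose to 30.7 ± 0.697 FPKM in siEzh2 cells, against 16.7 ± 0.292 FPKM in control cells (log2 fold change 0.84, adjusted p = 4.22e-05), and Sgk1, a kinase, to 96.9 ± 3.25 FPKM in siEzh2 cells, against 68.0 ± 1.13 FPKM in control cells (adjusted p = 0.000234). Whether any of these is connected to the Klf15 or Klf9 level was not tested. Nr3c1, Fkbp5 and Sgk1 are named after their values were seen.

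Of 18 genes of smooth muscle phenotype switching 16 were tested, with 2 higher, 9 lower and 5 not passing, and a median log2 fold change of −0.18. Lmod1, a contractile actin nucleator, was at 10.05, 9.66 and 10.3 FPKM in siEzh2 samples, against 16.9, 16.7 and 16.7 FPKM in control samples (log2 fold change −0.69, adjusted p = 8.51e-05). Lgals3, a galectin that marks modulated smooth muscle cells and macrophages, was at 102, 89.5 and 96.5 FPKM in siEzh2 samples, against 64.9, 60.5 and 60.9 FPKM in control samples (log2 fold change 0.62, adjusted p = 0.000522). Myocd and Srf, whose products drive contractile genes and are named after their values were seen, were both lower. Myocd averaged 1.13 ± 0.186 FPKM in siEzh2 cells and 1.57 ± 0.0252 FPKM in control cells (adjusted p = 0.0159), and Srf 20.8 ± 0.885 FPKM in siEzh2 cells and 25.7 ± 0.955 FPKM in control cells (adjusted p = 0.00347). The other genes of the list called lower were Mrtfa, Acta2, Myh11, Smtn, Pdgfa and Myh10, and the other called higher was Spp1. Elk1, Mrtfb, Cnn1, Pdgfrb and Ly6a did not pass. Beside the falls of Myocd and Srf, Klf4 was 8.89% and Klf5 44.99% higher, calls lost in 8 and 4 of the 12 alternative settings. Whether these changes are connected was not tested.

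**Figure D4:**
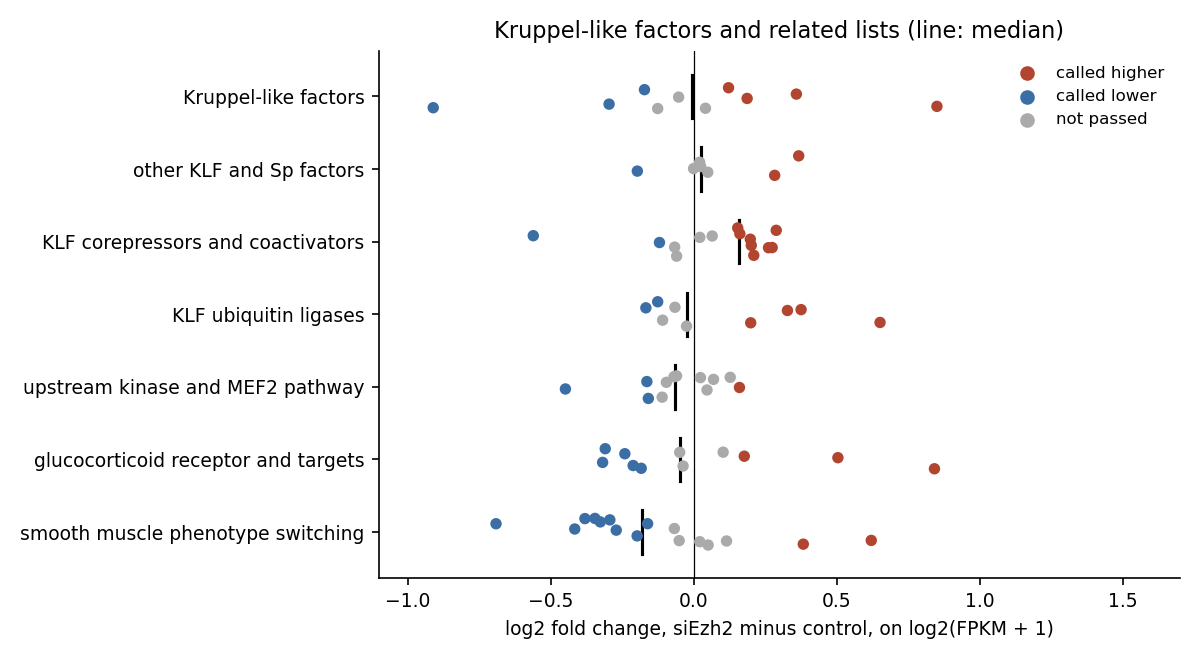
Log2 fold change, siEzh2 minus control, on log2(FPKM + 1), of each tested gene in the family and in 6 related lists, coloured by call, with a line at each list's median. The KLFs spread evenly to both sides of zero, while the phenotype switching list has its median at −0.18 and the corepressor and coactivator list at 0.16.

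Markers of other cells were low or mixed. The counts in this paragraph stand against the 24.1% higher and 22.7% lower of all tested genes. Of 12 macrophage and leukocyte markers 8 were below 1 FPKM in every sample, and 2 of the 4 tested were higher (Cd14 and Cd68) and 2 lower (Lyz2 and Csf1r). Csf1r, at 0.621 FPKM in siEzh2 cells and 2.01 FPKM in control cells, passed the filter only through its control mean. It could thus be tested only because it was high there. The list summed to 14.5 to 15.8 FPKM in siEzh2 samples and 17.9 to 21.3 FPKM in control samples. Ptprc, which marks leukocytes, was at most 0.00897 FPKM in any sample. Fibroblast and adventitia markers, of which 8 of 9 were tested, had 1 higher, 4 lower and 3 not passing, and summed to 736 to 774 FPKM in siEzh2 samples and 841 to 891 FPKM in control samples. Of 8 epithelial markers 4 were in the tables, and Epcam, Krt5, Krt14 and Krt8 were absent from them. Ivl and Krt19 were called higher, and Krt18 and Cdh1 were at most 0.0792 and 0.0377 FPKM in any sample. The 4 summed to 22.9 to 23.8 FPKM in siEzh2 samples and 6.33 to 7.55 FPKM in control samples, nearly all of it Ivl and Krt19. Of 13 mitochondrially encoded genes 8 were lower and 5 did not pass, with sums of 15861 to 16976 FPKM in siEzh2 samples and 19081 to 19794 FPKM in control samples. The part of these shifts in the KLF levels was not tested.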

How the data were processed

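RNA of 6 samples was measured from TruSeq stranded mRNA libraries, 3 labelled siEzh2 and 3 labelled control, per the labels. The authors deposited 1 table of FPKM per gene and sample, the unit per the file headers. Cufflinks, HTSeq, HISAT2, Trimmomatic and mm10 are named per the submitters' processing notes. Versions, order of use and whether counting used strand: not given in the sources used here. Each table held the same 27502 gene IDs, and GENCODE M21 (mm10) contained 27434 of them.

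Reads were recovered from the step size of FPKM times exon length: 98.5% to 98.6% of values came out whole within 0.02 of a read. A count of 0 allows up to 3 reads, 0.160 to 0.187 CPM per sample, for counting error only. The 11869 genes whose mean reached 1 FPKM in either group were tested two-sided with limma 3.58.1 (R 4.3.3, no covariate) on log2(FPKM + 1), which understates the change of low genes, and adjusted by Benjamini-Hochberg. Named genes were all members, Ezh2 and, per list, the called gene with the largest change each way without overlap; all members of the KLF and Sp list could be named too. Every other named gene was named after its values were seen. The members and lists were chosen with earlier results of these data known.

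Pairs of samples within a group differed by a chi-square per degree of freedom of 2.09 to 3.13 on recovered reads, so no 2 of them agree within sampling noise. The settings varied were quantile normalization, no filter, a pseudocount of 0.1, the replicate number as a block, trend and robust variance, limma-voom on recovered reads and leaving out each sample. Promoter windows came from a RefSeq table (GRCm38.p6), in which 8 of 10 members had an entry. Tables and plots used Python 3.11.15 with pandas 2.3.3, numpy 2.4.6 and matplotlib 3.10.9.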

Additional observations from a re-analysis of the deposited data

How the results depend on the processing

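No member reversed direction in any of the 12 alternatives (quantile normalization, no filter, a pseudocount of 0.1, the replicate block, trend and robust variance, limma-voom on recovered reads, and each of 6 samples left out). Members called higher numbered 4 as reported and 1 to 3 with 1 sample left out, and members called lower 3 as reported and 2 to 3 with 1 sample left out. Same-numbered siEzh2 and control samples deviated together only weakly (correlations of 0.0243, 0.0695 and 0.0405), so the numbers were not taken as pairs, although each sample correlated best with its own number. With the replicate number as a block 2 members were called higher, since Klf4 (adjusted p = 0.0835) and Klf5 (adjusted p = 0.0516) lost the call; the cause was not tested. Genes called higher numbered 2309 to 2885 and genes called lower 2156 to 3310 over the alternatives. Which of these was the larger count depended on the setting: 2866 higher and 2695 lower as reported, 2607 and 2891 with quantile normalization, and 2885 and 3310 with limma-voom. The median log2 fold change of all tested genes stayed between −0.01 and 0.01 under every scaling. The summed FPKM of the members had a ratio of 0.995 to 1.01 with 1 sample left out and 1.0005 after scaling to the same upper quartile. Klf5, with 634 reads over the siEzh2 samples and 478 over the control samples, had the largest SE of the members (0.0865).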
